A study of Mus musculus with 39 samples.

Results

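Krt7, Krt8, Krt18, Krt19, Epcam and Muc1 are 6 of the 18194 genes measured on 39 mouse arrays. They were taken as the genes of simple epithelial keratins and surface proteins, and each was read from its brightest probe set over all arrays, leaving out cross-hybridising probe sets where another existed. These were 1423952_a_at for Krt7, 1420647_a_at for Krt8, 1448169_at for Krt18, 1417156_at for Krt19, 1416579_a_at for Epcam and 1449199_at for Muc1. The values are RMA log2 values, so a difference of 1 is a 2-fold change, and levels of different genes are not set against each other.

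The arrays fell into 6 groups by genotype and tissue label. Quadruple animals carried SB, Tg, K5Cre and Bcat, and 15 of them gave 19 breast arrays. Triple K5Cre animals carried SB, Tg and K5Cre, and each of 8 gave 1 breast array. Triple Bcat animals carried SB, Tg and Bcat, and 2 of them gave 3 breast arrays. Masses in the breast came from 2 animals labelled bcat +/- (2 arrays), and ventral tumours from 1 animal labelled Bcat +/- (3 arrays). The normal mammary gland arrays came from 4 animals that carried the same alleles: 2 triple K5Cre, 1 quadruple and 1 triple Bcat. SB is the usual short form of Sleeping Beauty, the transposon system in the series title, and K5Cre that of a Cre recombinase driven by the keratin 5 promoter of basal epithelium. Tg and Bcat are not spelled out in the labels, and neither age nor sex is known from the sources used here. The titles of the masses and the ventral tumours carry C57 in the animal names and those of the other groups do not; strain is not otherwise stated, so strain and group cannot be told apart for these comparisons. It is not said in the labels that the quadruple and triple breast samples were tumours.

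Keratins form the intermediate filaments of epithelial cells from obligate pairs of a type II and a type I chain. Krt8 and Krt7 are type II chains, and Krt18 and Krt19 are type I chains. Krt8 with Krt18 or Krt19 is the usual pair of simple, single-layered epithelium and of the luminal cells of the mammary gland, whereas Krt5 and Krt14 make up the pair of basal cells. Epcam is a homophilic adhesion molecule of epithelial cells that binds claudin 7. Muc1 is a transmembrane mucin of the apical surface of luminal cells. In samples of whole tissue, fewer cells of a type and less RNA per cell cannot be told apart.

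The type II chain gene Krt8 had a lowest, median and highest log2 value of 10.39, 12.24 and 13.80 in the quadruple arrays and of 10.84, 12.35 and 14.25 in the triple K5Cre arrays. It stood at 10.41, 12.92 and 12.41 in the triple Bcat arrays, at 12.17 and 12.66 in the masses, at 10.44, 12.02 and 12.11 in the ventral tumours, and at 12.43, 12.43, 13.53 and 13.04 in normal gland. Every ventral tumour array was below every gland, and the other groups overlapped with gland. Its type I partner Krt18 ran through 9.90, 11.80 and 13.43 (lowest, median, highest) in the quadruple arrays and 10.28, 12.07 and 13.89 in the triple K5Cre arrays. Krt18 was at 9.75, 12.26 and 11.96 in the triple Bcat arrays, 10.81 and 12.36 in the masses, 10.20, 11.61 and 11.57 in the ventral tumours, and 12.07, 12.15, 13.13 and 12.68 in normal gland. The order of the arrays was nearly that of Krt8, and again every ventral tumour lay below every gland. The log2 ratio of Krt8 to Krt18 had an SD of 0.24 over the 39 arrays, against 1.01 for Krt8 and 1.05 for Krt18 alone. It lay farthest from its median in masses array 1, where it was 1.00 higher.

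Krt8 and Krt18 lie on chromosome 15 with 0 other protein-coding genes of the RefSeq table between them, although they belong to different keratin types. Of the 6 genes, 5 had a promoter in the RefSeq table of build GRCm38.p6, and Krt19 was not analysed here in this respect. The 250 bases before the start are shown for the pair that varied together, Krt8 (chr15:102004343-102004592, minus strand) and Krt18 (chr15:102027966-102028215, plus strand), and for Epcam (chr17:87635729-87635978, plus strand) and Muc1 (chr3:89228806-89229055, plus strand), which parted from them in single arrays. Capitals mark the E-box CACCTG or its reverse complement CAGGTG.
Krt8: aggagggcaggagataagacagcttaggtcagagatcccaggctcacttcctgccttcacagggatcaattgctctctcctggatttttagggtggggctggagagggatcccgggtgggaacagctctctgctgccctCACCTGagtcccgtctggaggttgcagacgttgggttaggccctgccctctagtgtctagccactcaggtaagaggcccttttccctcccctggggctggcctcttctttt
Krt18: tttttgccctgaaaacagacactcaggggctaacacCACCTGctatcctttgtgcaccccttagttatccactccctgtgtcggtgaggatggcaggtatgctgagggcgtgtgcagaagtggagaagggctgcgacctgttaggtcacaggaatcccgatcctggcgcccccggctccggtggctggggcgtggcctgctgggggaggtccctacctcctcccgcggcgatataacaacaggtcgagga
Epcam: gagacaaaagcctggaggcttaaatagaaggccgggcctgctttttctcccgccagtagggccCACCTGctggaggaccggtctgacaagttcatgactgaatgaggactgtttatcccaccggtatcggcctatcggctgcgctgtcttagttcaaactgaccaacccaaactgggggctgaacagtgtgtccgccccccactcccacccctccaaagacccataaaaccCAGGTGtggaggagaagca
Muc1: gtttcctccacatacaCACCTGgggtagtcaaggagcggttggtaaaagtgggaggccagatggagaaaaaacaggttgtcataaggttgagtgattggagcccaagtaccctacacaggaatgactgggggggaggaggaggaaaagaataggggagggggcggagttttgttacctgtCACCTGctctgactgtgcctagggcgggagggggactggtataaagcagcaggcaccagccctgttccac
The E-box begins 111 bases before the start in Krt8, 214 in Krt18, 187 and 19 in Epcam, and 234 and 70 in Muc1. Krt7 holds it too, 44 bases before its start, so it was found in 5 of 5 promoters, against 17.2% of 32851 RefSeq promoter windows of the same length. Its letters are those known to be bound by the repressors Zeb1 and Snai1, and they were chosen after these sequences had been read. The GC box GGGCGG or its reverse complement, which overlaps no E-box here, was found in 3 of the 5 (Krt7, Epcam and Muc1), against 32.7% of the windows.

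Krt19, the smallest keratin and a type I partner of Krt8, varied more. Its lowest, median and highest values were 6.19, 10.83 and 13.30 in the quadruple arrays and 8.77, 10.96 and 14.18 in the triple K5Cre arrays. It stood at 8.82, 11.72 and 12.13 in the triple Bcat arrays, 11.44 and 10.66 in the masses, 8.30, 9.15 and 10.25 in the ventral tumours, and 11.78, 11.60, 13.32 and 12.60 in normal gland. Both masses, all 3 ventral tumours and 15 of the 19 quadruple arrays lay below the lowest gland. Krt7, a type II keratin of ducts and glands, had a lowest, median and highest value of 5.35, 9.58 and 12.02 in the quadruple arrays and 8.08, 10.50 and 12.75 in the triple K5Cre arrays. Krt7 stood at 9.63, 10.44 and 10.31 in the triple Bcat arrays, 11.39 and 10.64 in the masses, 11.78, 8.78 and 11.51 in the ventral tumours, and 9.01, 9.04, 11.04 and 10.45 in normal gland. Its groups all overlapped with gland except the ventral tumours, whose 3 arrays lay on both sides of the gland range.

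**Figure D1:**
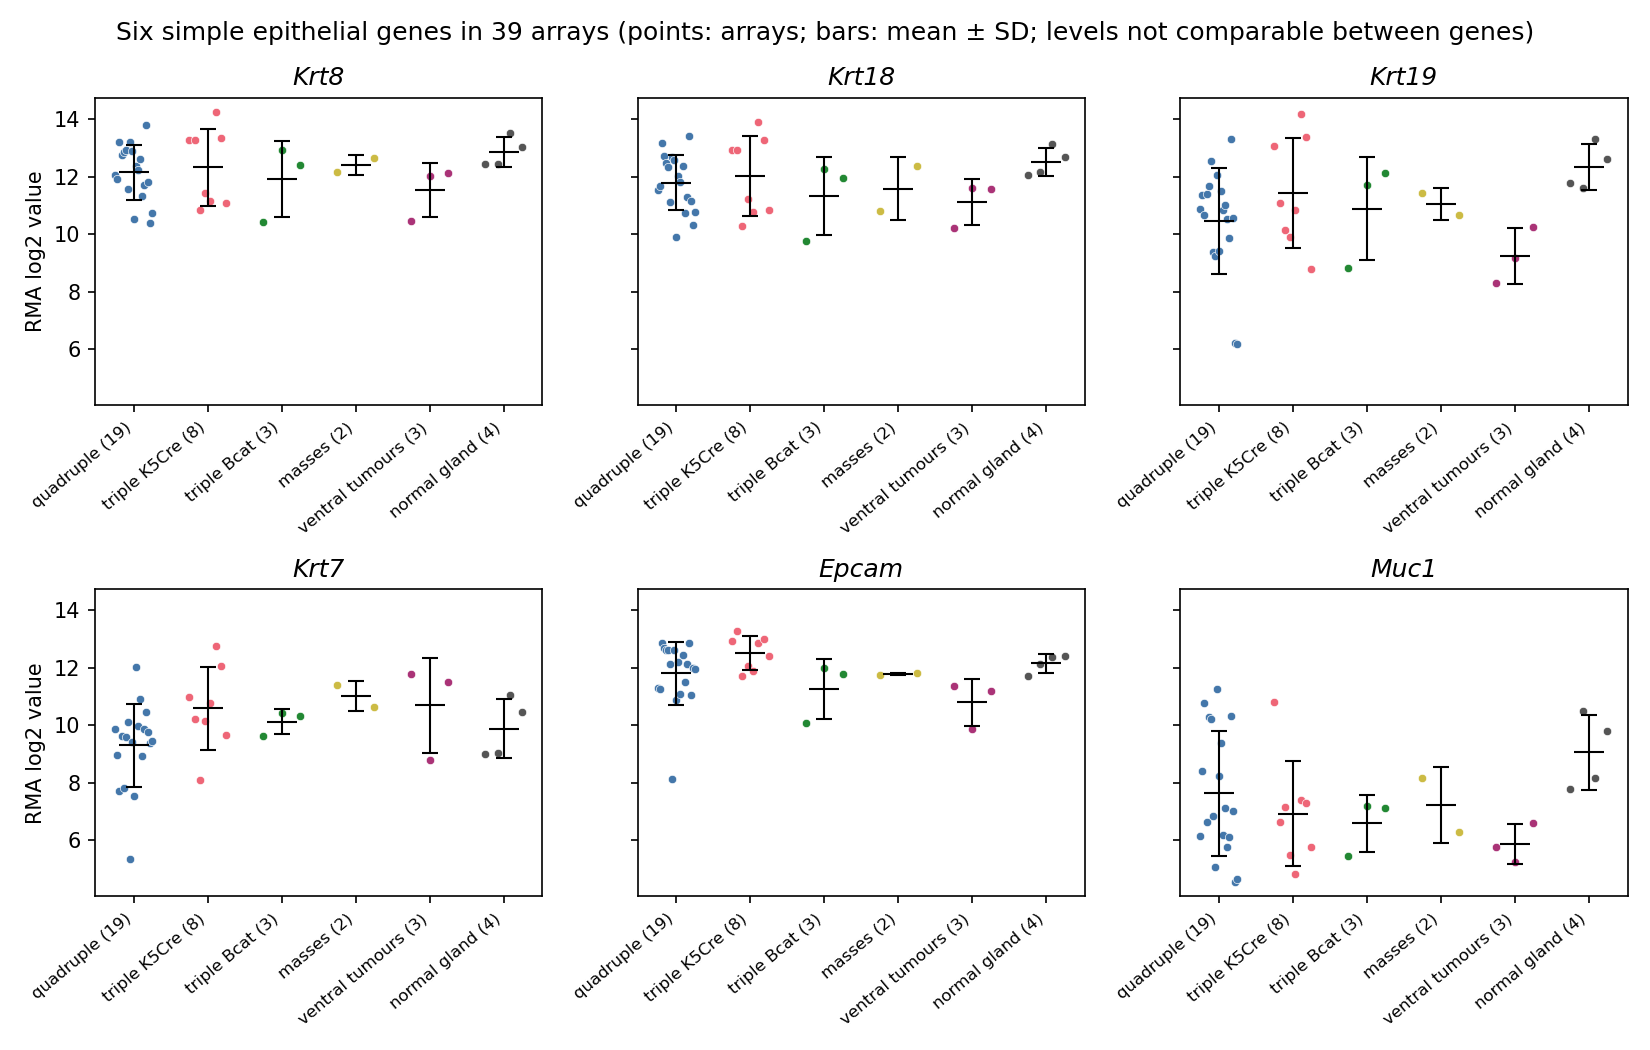
Log2 values of the 6 genes in the 39 arrays, a panel per gene, with groups along the x axis and the number of arrays in brackets; points are arrays and bars the mean ± SD. The 3 ventral tumour arrays, which come from the same animal, lie below all 4 glands for Krt8, Krt18, Krt19, Epcam and Muc1. How many of all genes separate in this way was not counted. The quadruple arrays of Krt19 and Muc1 spread over 7.12 and 6.72 log2 units.

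Epcam had a lowest, median and highest value of 8.13, 12.12 and 12.88 in the quadruple arrays and 11.73, 12.63 and 13.30 in the triple K5Cre arrays. It was at 10.08, 11.98 and 11.78 in the triple Bcat arrays, 11.75 and 11.81 in the masses, 11.36, 9.87 and 11.18 in the ventral tumours, and 11.70, 12.15, 12.38 and 12.40 in normal gland. The ventral tumours lay below every gland, and 4 of the 8 triple K5Cre arrays lay above every gland. Muc1 ran through 4.53, 7.02 and 11.25 (lowest, median, highest) in the quadruple arrays and 4.82, 6.89 and 10.80 in the triple K5Cre arrays. Muc1 was at 5.45, 7.18 and 7.13 in the triple Bcat arrays, 8.17 and 6.28 in the masses, 5.77, 5.23 and 6.60 in the ventral tumours, and 7.78, 10.49, 8.17 and 9.80 in normal gland. All triple Bcat and ventral tumour arrays and 7 of the 8 triple K5Cre arrays lay below every gland for Muc1. Detection calls were not used here, so the lowest Muc1 values were not separated from background.

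By group mean, normal gland was highest for Krt8, Krt18, Krt19 and Muc1, the triple K5Cre group for Epcam and the masses for Krt7. The ventral tumours were lowest for Krt8, Krt18, Krt19, Epcam and Muc1, and the quadruple group for Krt7. Between groups next to each other in these orders the ranges of the arrays overlapped for every gene. Groups accounted for 19.9% of the variance of Krt7 over the 39 arrays, 9.30% of that of Krt8, 10.8% of Krt18, 18.6% of Krt19, 22.7% of Epcam and 16.2% of Muc1. The median over all genes was 19.6%. The SD over the 39 arrays was 1.93 for Muc1, 1.77 for Krt19, 1.41 for Krt7, 1.05 for Krt18, 1.01 for Krt8 and 0.98 for Epcam, against a median of 0.33 over all genes. By SD the 6 genes lay between percentile 88.9 (Epcam) and percentile 98.3 (Muc1) of all genes, with most of that spread inside the groups.

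Against normal gland, none of the 6 genes passed the test in any of the 5 groups. The test was limma's moderated test on all 39 arrays with the animal as a random block, and p was adjusted by Benjamini-Hochberg across 18194 genes with a threshold of 0.05. In the quadruple arrays 0 of 6 passed, against 15.4% of all genes. There 1 of the 6 had an unadjusted p under 0.05, against 5062 of all 18194 genes. All 6 fitted differences were below 0, with a median of -0.75, against 0.01 over all genes. Krt19 averaged 10.45 ± 1.83 in the quadruple arrays (SD, n = 19) and 12.32 ± 0.80 in normal gland (SD, n = 4). Its fitted log2 difference of -1.91 (SE 0.88) had an adjusted p of 0.146, and an unadjusted p of 0.0364. Muc1 averaged 7.63 ± 2.18 in the quadruple arrays and 9.06 ± 1.29 in normal gland, a difference of -1.34 (SE 1.02, adjusted p = 0.430). Differences for the other 4 genes were -0.72 (SE 0.56) for Krt8, -0.76 (SE 0.58) for Krt18, -0.75 (SE 0.74) for Krt7 and -0.26 (SE 0.52) for Epcam, with adjusted p from 0.434 to 0.811. With limma's array weights, which give discordant arrays less weight, 4 of the 6 fell: Krt19 (-2.42, SE 0.73, adjusted p = 0.00888), Krt8 (-1.04, SE 0.41, adjusted p = 0.0427), Krt18 (-1.05, SE 0.41, adjusted p = 0.0429) and Muc1 (-1.91, SE 0.75, adjusted p = 0.0436). In that fit 6749 genes were called, against 2794 without weights.

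Among triple K5Cre arrays 0 of 6 passed against normal gland in limma's test, against 17.2% of all genes. There 0 of the 6 had an unadjusted p under 0.05, against 5368 of all 18194 genes. The median of the 6 differences was -0.62, against 0.02 over all genes. Muc1 averaged 6.92 ± 1.83 in the triple K5Cre arrays (SD, n = 8) and 9.06 ± 1.29 in normal gland, a fitted difference of -2.14 (SE 1.05, adjusted p = 0.169). Krt19 stood at -1.14 (SE 0.91), Krt8 at -0.63 (SE 0.58) and Krt18 at -0.61 (SE 0.60), and Krt7 and Epcam at 0.33 each (SE 0.77 and 0.54). With array weights Muc1 (-2.44, SE 0.84, adjusted p = 0.0214), Krt8 (-1.22, SE 0.45, adjusted p = 0.0343) and Krt18 (-1.20, SE 0.46, adjusted p = 0.0387) fell, in a fit that called 6366 genes, against 3134 without weights. T627 and T635 gave both a triple K5Cre breast array and a normal gland array. In T635 all 6 genes were lower in breast than in gland, by log2 differences of -2.19 (Krt8), -2.40 (Krt18), -2.47 (Krt19), -2.37 (Krt7), -0.67 (Epcam) and -2.65 (Muc1). In T627 Krt19 (-2.25), Muc1 (-1.55), Krt7 (-0.82), Krt8 (-0.25) and Krt18 (-0.20) were lower in breast and Epcam was higher (0.92). The array of T627 breast, that of T627 gland and that of quadruple animal Q629 read 7.0, 5.64 and 5.72 for Xist, the RNA of the inactive X chromosome in females, against at least 10.77 in the other arrays.

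In the triple Bcat arrays 0 of 6 passed, against 7.12% of all genes (limma, median difference -1.29). At an unadjusted p under 0.05 there were 0 of the 6, against 4021 of all 18194 genes. Muc1 had the largest difference, -2.59 (SE 1.49, adjusted p = 0.316), and array 1 was the lowest of the 3 arrays for all 6 genes. Krt7 had a higher mean than in gland (10.13 ± 0.43 in the triple Bcat arrays and 9.88 ± 1.02 in gland), while its fitted difference with the animal block was -0.09 (SE 1.09), and 0.12 (SE 1.02) on animal means. In the masses 0 of 6 passed, against 7.28% of all genes (limma, median -0.76). At an unadjusted p under 0.05 there were 0 of the 6, against 3851 of all 18194 genes. Muc1 was again the most distant (-1.84, SE 1.60, adjusted p = 0.559), and Krt7 stood at 0.85 (SE 1.17).

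In the ventral tumours 0 of 6 passed, against 4.03% of all genes (limma, median -1.43). There 1 of the 6 had an unadjusted p under 0.05, against 3407 of all 18194 genes. Krt19 averaged 9.24 ± 0.98 in the ventral tumours (SD, n = 3) and 12.32 ± 0.80 in normal gland, a fitted difference of -3.25 (SE 1.43, unadjusted p = 0.0291, adjusted p = 0.203). Muc1 stood at -3.19 (SE 1.66, adjusted p = 0.301), Krt18 at -1.46 (SE 0.94), Krt8 at -1.39 (SE 0.91), Epcam at -1.37 (SE 0.84) and Krt7 at 0.52 (SE 1.21). For 5 of the 6 genes the ventral tumours and the glands did not overlap, and how many of all genes did likewise was not counted. Of these 5, Krt8 and Krt18 varied nearly together. All 3 arrays came from 1 animal, so these differences hold for that animal. In a fit of the ventral tumour and gland arrays alone, 3 fell: Krt19 (-3.09, SE 0.58, adjusted p = 0.00855), Muc1 (-3.19, SE 0.71, adjusted p = 0.0170) and Epcam (-1.36, SE 0.39, adjusted p = 0.0408), where 4398 genes were called, against 734 in the fit of all arrays. The spread in that fit comes partly from arrays of the same animal. On animal means, with the ventral tumours as 1 sample whose spread is taken from the other groups, 0 of 6 passed: Krt19 was -3.09 (SE 1.74, adjusted p = 0.524), Muc1 -3.19 (adjusted p = 0.573) and Epcam -1.36 (adjusted p = 0.487), with 93 genes called. With array weights the same 3 genes fell (Krt19 -2.94, Muc1 -3.24, Epcam -1.75), among 5717 genes called.

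**Figure D2:**
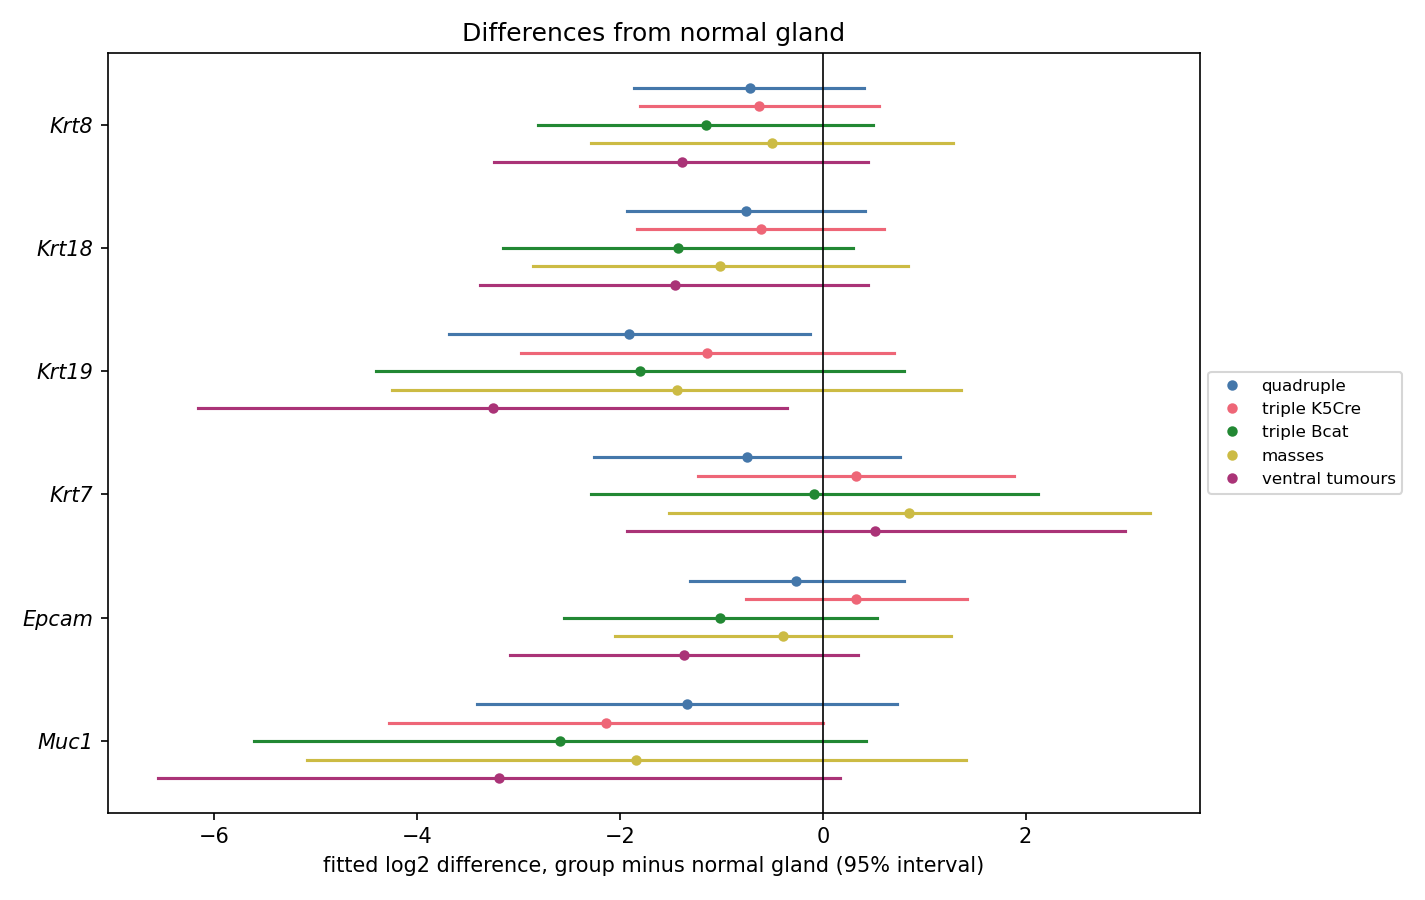
Fitted log2 differences of 5 groups from normal gland for the 6 genes (x axis, 0 at normal gland), with points as estimates and lines as 95% intervals from limma; groups run from quadruple at the top to ventral tumours at the bottom within each gene. The intervals of Krt19 in the quadruple arrays and the ventral tumours are the only ones that lie wholly below 0 before adjustment, and the ventral tumours stand farthest left for 5 genes.

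Normal gland also stood high in markers of fat and muscle. The mean of 12 adipocyte markers was 5.32 to 11.17 in the quadruple arrays, 4.86 to 8.01 in the triple K5Cre arrays, 5.88 to 7.41 in the triple Bcat arrays, 5.50 to 6.07 in the masses, 5.83 to 6.17 in the ventral tumours and 10.95 to 11.40 in normal gland. The mean of 15 skeletal muscle markers was 4.26 to 10.89 in the quadruple arrays, 4.19 to 11.40 in the triple K5Cre arrays, 4.51 to 4.90 in the triple Bcat arrays, 4.80 to 5.08 in the masses, 4.82 to 8.54 in the ventral tumours and 10.41 to 12.08 in normal gland. With the adipocyte mean as a covariate, Muc1 turned above gland in all 5 groups (1.60, SE 1.25 in the quadruple arrays), without passing. Outside the quadruple arrays every breast or tumour array lay below the lowest gland in that mean. A fit with this covariate can therefore hardly separate fat content from the difference between gland and the other groups. The mean of 15 skin and squamous markers was 5.05 to 12.45 in the quadruple arrays, 4.52 to 11.24 in the triple K5Cre arrays, 8.67 to 12.25 in the triple Bcat arrays, 10.02 to 11.60 in the masses, 10.99 to 11.89 in the ventral tumours and 4.92 to 8.01 in normal gland. Means of 7 salivary and sweat gland markers were 3.80 to 6.05 in quadruple and 3.92 to 5.56 in triple K5Cre arrays. They were 4.36 to 4.53 in the triple Bcat arrays, 3.91 to 4.02 in the masses and 4.04 to 4.07 in the ventral tumours. In normal gland they were 5.69 to 6.37. Of these 7, 2 (Amy1 and Smr2) were called lower and 0 higher in each of the 5 groups. Of all genes 15.4%, 17.2%, 7.12%, 7.28% and 4.03% passed there. The part of these tissues in the differences of the 6 genes was not tested beyond that covariate.

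The breast and tumour groups were also set against each other. None of the 6 genes passed in limma's test in the quadruple arrays against the triple K5Cre arrays, where 0% of all genes passed and 811 of 18194 had an unadjusted p under 0.05. Krt7 had the smallest p there (9.30 ± 1.44 in the quadruple arrays and 10.59 ± 1.44 in the triple K5Cre arrays, difference -1.08, SE 0.58, adjusted p = 0.995). In the quadruple arrays against the triple Bcat arrays 0 of 6 passed, against 0.033% of all genes, and Epcam had the smallest p (difference 0.75, SE 0.64, adjusted p = 0.736). In the quadruple arrays against the masses 0 of 6 passed, against 0.214% of all genes, with Krt7 nearest (-1.60, SE 1.02, adjusted p = 0.735). In the quadruple arrays against the ventral tumours 0 of 6 passed, against 0.143% of all genes, with Epcam nearest (11.81 ± 1.10 in the quadruple arrays and 10.80 ± 0.82 in the ventral tumours, difference 1.11, SE 0.74, adjusted p = 0.645). With array weights Epcam was higher in the quadruple arrays than in the ventral tumours (1.51, SE 0.38, adjusted p = 0.00553, in a fit calling 3759 genes, against 26 without weights). In the triple K5Cre arrays against the triple Bcat arrays 0 of 6 passed, against 0.0385% of all genes, and Epcam stood at 12.52 ± 0.58 in the triple K5Cre arrays and 11.28 ± 1.04 in the triple Bcat arrays (difference 1.34, SE 0.69, adjusted p = 0.425). In each of these 5 comparisons 0 of the 6 genes had an unadjusted p under 0.05, against 811 to 2206 of all 18194 genes. The intervals were wide: that of Epcam in the last comparison ran from -0.05 to 2.73.

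Across the 15 quadruple animals, with the arrays of an animal averaged, all 15 pairs of the 6 genes were correlated, with permutation p-values adjusted over the 15 pairs. Krt8 and Krt18 moved nearly together, with a Pearson r of 0.97 and a Spearman rho of 0.97 (adjusted p = 0.00015 for each, from a permutation p of 1e-05, the smallest that 100000 permutations can give), and r was 0.97 without the 2 animals farthest from the median of Krt8. Krt8 and Krt19 gave r = 0.84 and rho = 0.81 (permutation, adjusted p = 0.0006 and 0.0018), and r was 0.64 without the 2 animals farthest out. Krt8 and Muc1 gave r = 0.83 and rho = 0.84 (permutation, adjusted p = 0.0006 and 0.00157), and r was 0.75 without those 2 animals. Krt18 and Krt19 (r = 0.73), Krt18 and Muc1 (r = 0.78) and Krt19 and Muc1 (r = 0.71) passed by both measures too, with adjusted permutation p of 0.00217 for each r. These 3 had rho of 0.76, 0.76 and 0.69 in that order, and r of 0.75, 0.67 and 0.56 without the 2 animals farthest out.

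Epcam was tied less closely to the keratins. With Krt18 it gave r = 0.64 and rho = 0.76 (permutation, adjusted p = 0.0225 and 0.00377), with r = 0.50 without the 2 animals farthest out. With Krt8 it gave r = 0.55 and rho = 0.73 (permutation, adjusted p = 0.0591 and 0.00624), and with Krt19 r = 0.30 and rho = 0.58 (permutation, adjusted p = 0.428 and 0.0438), so those pairs passed by rank only. Over the 19 arrays singly the r of Epcam with Krt18 was 0.25 and with Krt8 0.15, where quadruple array 8 counts on its own. Krt7 went with none of the other 5: r ran from -0.17 with Muc1 to 0.23 with Epcam, and no pair passed by either measure (adjusted permutation p of at least 0.570 for r and 0.645 for rho). Its r with Epcam was 0.59 over the 19 arrays singly. Over animal means that r was -0.05 without animal Q648, against 0.23 with it.

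**Figure D3:**
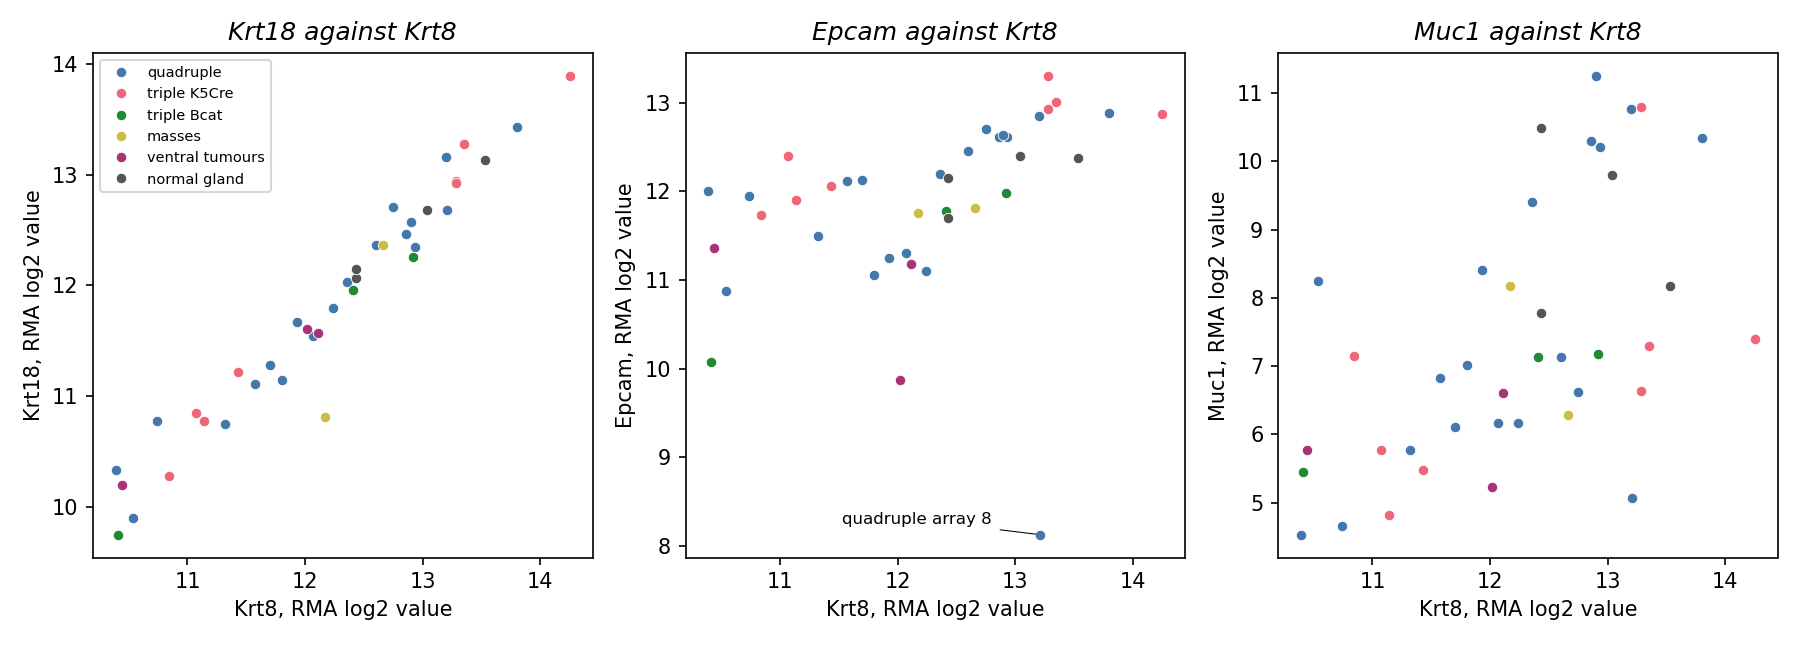
Log2 values of Krt18, Epcam and Muc1 (y axes) against that of Krt8 (x axes) in the 39 arrays, coloured by group. Krt18 follows Krt8 closely apart from masses array 1, Epcam less so with quadruple array 8 at 8.13 far below the others, and Muc1 spreads over several log2 units at like Krt8 values.

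A further 24 relations, chosen after seeing the data, set the 6 genes against Cdh1 (E-cadherin), Krt5, Krt14 and Vim (vimentin, the filament of mesenchymal cells) in the same 15 animals. By Pearson's r, Krt14 was lower in animals with higher Krt18 (r = -0.69, rho = -0.65, permutation, adjusted p = 0.0429 and 0.138) and in animals with higher Muc1 (r = -0.66, rho = -0.59, adjusted permutation p = 0.0429 and 0.138). Without the 2 animals farthest out these r values were -0.51 and -0.47. Krt7 went with the basal keratin gene Krt5 (r = 0.67, rho = 0.54, permutation, adjusted p = 0.0429 and 0.141, and r = 0.69 without the 2 farthest animals). Epcam went with Cdh1 (r = 0.69, rho = 0.46, permutation, adjusted p = 0.0429 and 0.190), and that r was 0.45 without the 2 farthest animals. None of the 24 passed by rank.

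Single arrays departed from their group in different genes. Animal Q648 gave quadruple arrays 8, 9 and 10. In array 8 Epcam (8.13) and Krt7 (5.35) had their lowest values of all 39 arrays. Krt19 (9.23) and Muc1 (5.07) were below the medians of their group there, while Krt8 (13.21) and Krt18 (12.68) were above theirs. Array 9 of the same animal had 12.63 for Epcam, 9.42 for Krt7, 12.90 for Krt8 and 11.25 for Muc1, the highest Muc1 value of the 39. Array 10 had 10.88 for Epcam, 7.54 for Krt7, 10.54 for Krt8 and 8.24 for Muc1. Krt19 was at 12.04 in array 9 and 9.41 in array 10. The adipocyte and muscle marker means were 10.29 and 10.76 in array 9, and the skin and squamous mean was 12.45 in array 10, the highest of the quadruple arrays. Their part in these values was not tested. The 3 arrays of Q648 spanned 6.19 log2 units for Muc1, 4.51 for Epcam and 4.06 for Krt7. By contrast, the 2 arrays of Q190 differed by at most 0.27 and those of Q2154 by at most 0.45 in any of the 6 genes.

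The low values in quadruple array 8 took in other epithelial genes as well. The array was picked for its Epcam value, so the following is a description with no test. Of 25 epithelial genes besides the members, 19 had their lowest value of the 39 in it, against 5.46% of all genes. These 25 include Cdh1, Esrp1, Esrp2, Marveld3 and Spint2. Cdh1 stood at 8.91 there, against 10.96 to 12.42 in the other 38 arrays. The splicing regulators Esrp1 and Esrp2, which maintain epithelial isoforms, stood at 5.96 and 6.68, against lowest values of 9.28 and 7.97 elsewhere. The tight junction gene Marveld3 was at 4.37, against at least 5.99, and the protease inhibitor gene Spint2 at 8.55, against at least 10.23. Zeb1, a repressor of Cdh1, was at 9.91, the highest of the 39 arrays, with 5.61 to 9.14 in the others. Of all genes 6.14% had their highest value of the 39 in this array. Vim was at 12.87, above 35 of the 38 others. Zeb2 (8.25), Snai1 (5.55) and Snai2 (8.29) lay inside the range of the other arrays. Of 7 basal and wound keratins, 0 were at their lowest in this array, too few genes to set against 5.46%. Krt5 (10.60) and Krt14 (11.91) stood below the medians of their group there (12.12 and 12.96). Zeb1, Zeb2, Snai1, Snai2 and the genes given here were chosen after their values were seen.

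Other genes were low in animal Q2154 (quadruple arrays 18 and 19). Krt19 stood at 6.20 and 6.19 there, against at least 8.30 in the other 37 arrays, and Muc1 at 4.53 and 4.65, the lowest of the 39. Krt8 was also low, at 10.39 and 10.74, but Epcam (12 and 11.95) and Krt7 (9.37 and 9.44) were near the medians of the group. The log2 ratio of Krt8 to Krt19 was 3.34 above its median in array 19, the largest departure of the 39 arrays. At the other end, quadruple array 16 had the highest Krt8 (13.80), Krt18 (13.43), Krt19 (13.30) and Epcam (12.88) of its group. The skin and squamous mean was 5.05 in array 16, the lowest of the group, and 10.92 and 10.31 in arrays 18 and 19.

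The 8 triple K5Cre arrays were far apart in the keratins. Krt8 was 13.28, 13.28, 10.84, 11.43, 11.14, 14.25, 13.35 and 11.07 in arrays 1 to 8, with no value between 11.43 and 13.28. Krt19 was 13.07, 11.08, 10.13, 9.89, 10.85, 14.18, 13.37 and 8.77 in the same order. The skin and squamous marker mean was 5.52, 4.52, 11.14, 10.49, 10.29, 5.60, 7.78 and 11.24 in these arrays, so the 4 arrays low in Krt8 were those with the higher marker mean, and its part in these values was not tested. Epcam ran only from 11.73 to 13.30 in them. Muc1 was 10.80 in array 1 and at most 7.39 in the other 7.

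**Figure D4:**
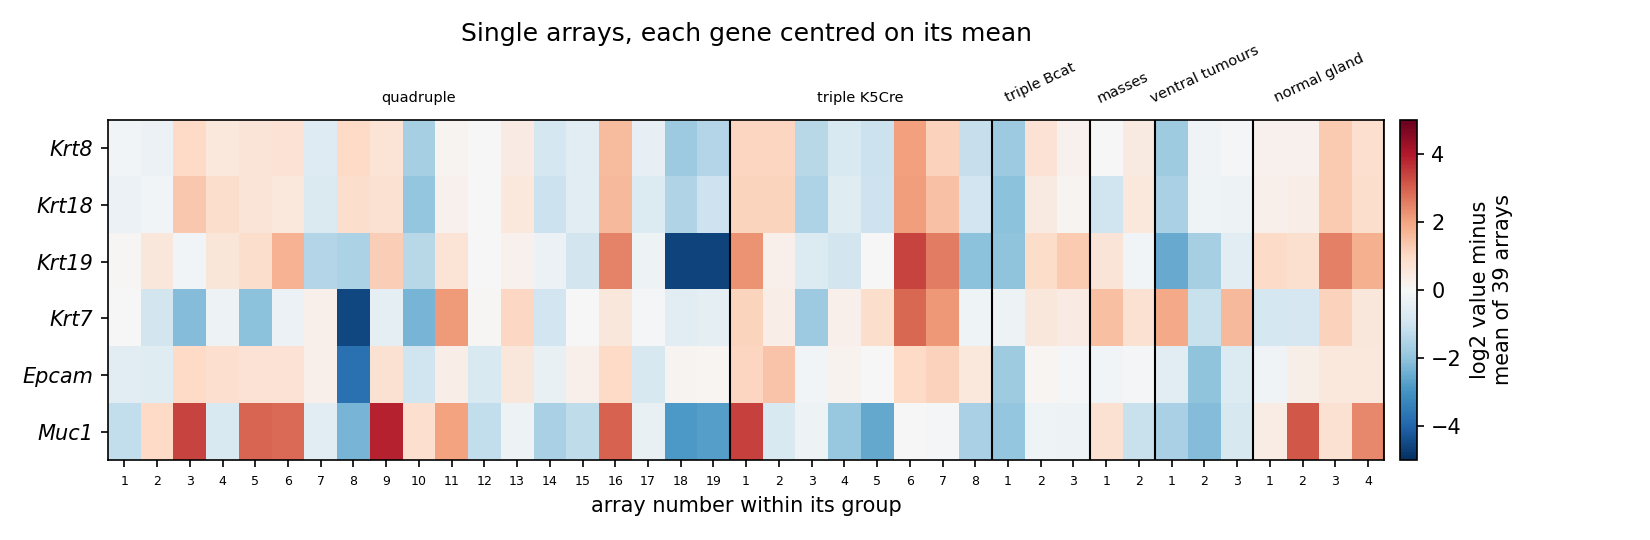
Log2 value of each of the 6 genes (rows) in each of the 39 arrays (columns, numbered within their group) minus that gene's mean over the 39 arrays, with red above and blue below the mean. Quadruple array 8 is blue for Krt7, Krt19, Epcam and Muc1 but not for Krt8 and Krt18. Quadruple arrays 18 and 19 are blue for Krt19 and Muc1, and Krt8 and Krt18 share nearly the same colours throughout.

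The genes whose pattern was most like each member were taken by Pearson's r over the 39 arrays, as a description. For Epcam they were the tight junction genes Marveld3 (r = 0.947, rho = 0.921) and Marveld2 (0.909, rho = 0.940), the protease inhibitor gene Spint2 (0.895), the potassium channel gene Kcnk1 (0.894) and the chloride channel gene Ano1 (0.877). For Muc1 they were Wfdc3 (r = 0.917), the milk fat protein gene Btn1a1 (0.901), the mucin gene Muc20 (0.901), the nesprin gene Syne4 (0.885) and the alpha-lactalbumin gene Lalba (0.875, rho = 0.729). Krt8 and Krt18 had Inppl1, a phosphoinositide phosphatase gene (r = 0.868 and 0.904), Ly6e, a membrane-anchored Ly6 family gene (0.871 and 0.887), and Enpp4 (0.845 and 0.870) in common, with Mapk9 (0.844) and Bik (0.828) for Krt8 and Trim14 (0.868) and Pck2 (0.853) for Krt18. For Krt19 they were Tlcd4 (0.836), the ion cotransporter gene Slc12a2 (0.790), Cystm1 (0.786), Cited1 (0.785) and Bik (0.785). Krt7 had the weakest: the adaptor gene Grb7 (0.747), the epithelial ETS factor gene Elf3 (0.691), St3gal4 (0.670), Synpo (0.668) and Wfdc2 (0.655). The points share arrays of the same animal, and quadruple array 8 weighs in the values of Epcam and Krt7. Krt8 with Krt18 gave 0.97 over the same 39 arrays.

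Lists of genes linked to the members by function were set against normal gland in the same fit. Of 25 other epithelial genes measured, 2 rose in the quadruple arrays, where 15.4% of all genes passed: Pkp3, a desmosomal plakophilin gene (1.21, SE 0.41, adjusted p = 0.0409), and Grhl2, an epithelial transcription factor gene (0.68, SE 0.22, adjusted p = 0.0330). Against the same glands, Grhl2 (0.91, SE 0.23, adjusted p = 0.00457) and Lsr, a tricellular junction gene (0.76, SE 0.23, adjusted p = 0.0200), rose in the triple K5Cre arrays, where 17.2% of all genes passed. The medians of the list were 0.29 in the quadruple and 0.56 in the triple K5Cre arrays, against 0.01 and 0.02 over all genes. In limma's test 0 of 25 passed in the triple Bcat arrays, the masses and the ventral tumours. At an unadjusted p under 0.05 were 4, 5 and 6 of the 25, against 4021, 3851 and 3407 of all 18194 genes. Of all genes 7.12%, 7.28% and 4.03% passed there. Leaving out any 1 of the 4 glands ended the calls of Pkp3 (1.05 to 1.40, adjusted p from 0.0574 to 0.156) and Grhl2 (0.63 to 0.73, adjusted p from 0.0527 to 0.124) in the quadruple arrays. Lsr lost its call without gland 1 (0.62, adjusted p = 0.0918) or gland 3 (0.79, adjusted p = 0.0557), while Grhl2 kept it in the triple K5Cre arrays without any 1 gland. With animals T627 and T635 as a replicate block, a fit of their 4 arrays in which 0 of all genes passed, Grhl2 (0.96, limma, adjusted p = 0.233) and Lsr (0.64, adjusted p = 0.481) did not pass in the triple K5Cre arrays.

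Of 11 genes of Epcam partners and proteases, Adam17, a sheddase that can cleave Epcam, passed in each of the 5 groups, and was higher in each. Its log2 difference from gland was 0.69 (SE 0.14, adjusted p = 0.000428) in the quadruple arrays, 1.02 (SE 0.20, adjusted p = 0.00144) in the triple Bcat arrays, 1.03 (SE 0.22, adjusted p = 0.00276) in the masses and 0.98 (SE 0.22, adjusted p = 0.00840) in the ventral tumours. Psen2, a subunit of the gamma-secretase that releases the Epcam intracellular domain, fell in the quadruple arrays (-1.16, SE 0.29, adjusted p = 0.00474), the triple K5Cre arrays (-1.31, SE 0.30, adjusted p = 0.00185) and the masses (-1.55, SE 0.46, adjusted p = 0.0320). Cd44, an adhesion receptor gene, rose in the quadruple (1.13, SE 0.37), triple K5Cre (1.30, SE 0.39) and triple Bcat arrays (1.75, SE 0.54), with adjusted p of 0.0343, 0.0163 and 0.0447. Fhl2, which binds the Epcam intracellular domain, rose in the triple K5Cre arrays (1.17, SE 0.38, adjusted p = 0.0302) and the masses (2.03, SE 0.58, adjusted p = 0.0276). The count was thus 2 higher and 1 lower in the quadruple arrays, 3 and 1 in the triple K5Cre arrays, 2 and 0 in the triple Bcat arrays, 2 and 1 in the masses, and 1 and 0 in the ventral tumours. In the same order 15.4%, 17.2%, 7.12%, 7.28% and 4.03% of all genes passed in either direction. Without gland 2, 3 or 4 Cd44 lost its call in the quadruple (0.93, 0.94 and 1.02), triple K5Cre (1.12, 1.10 and 1.19) and triple Bcat arrays (1.55, 1.56 and 1.64), and in the last also without any 1 of its own 3 arrays (1.66 to 1.88). Fhl2 lost its call without any 1 gland in the triple K5Cre arrays (1.11 to 1.19), and without gland 2 (1.96), gland 3 (2.05) or either mass (1.92 and 2.13) in the masses. Psen2 lost it in the masses without gland 1, 3 or 4 (-1.54 each) or either mass (-1.83 and -1.27). Adam17 lost it without masses array 2 (0.92) and, in the ventral tumours, without gland 3 (0.87) and on animal means (0.96, SE 0.27, adjusted p = 0.105). It kept its call in the quadruple arrays without any 1 gland, and in the triple Bcat arrays without any 1 gland or triple Bcat array. Cd44 did not pass on animal means in the quadruple (1.09, adjusted p = 0.0701), triple K5Cre (1.23, adjusted p = 0.0598) and triple Bcat arrays (1.68, adjusted p = 0.0962). In the replicate block of T627 and T635, 0 of all genes passed in the triple K5Cre arrays. Cd44 stood at 1.73 (limma, adjusted p = 0.136), Fhl2 at 0.84 (adjusted p = 0.307) and Psen2 at -1.32 (adjusted p = 0.210) there.

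Of 12 genes of keratin linkers and regulators, 4 rose and 1 fell in the quadruple arrays, where 15.4% of all genes passed. Sfn, the stratifin gene (2.34, SE 0.76, adjusted p = 0.0298), and the desmosomal gene Pkp1 (1.87, SE 0.62, adjusted p = 0.0342) had the largest rises, the others being Jup and Csnk1a1, and Pkp2, a plakophilin of simple epithelium and heart, fell (-1.93, SE 0.55, adjusted p = 0.0143). In the triple K5Cre arrays Jup, the plakoglobin gene (1.16, SE 0.38, adjusted p = 0.0324), and Csnk1a1, a casein kinase gene (0.33, SE 0.12, adjusted p = 0.0458), rose and Pkp2 fell (-1.82, SE 0.57, adjusted p = 0.0236). Csnk1a1 alone rose in the triple Bcat arrays (0.53, SE 0.16, adjusted p = 0.0406), and Pkp1 (3.04, SE 0.97, adjusted p = 0.0485) and Jup (1.83, SE 0.59, adjusted p = 0.0488) rose in the masses. In the ventral tumours 0 of 12 passed in limma's test, with 6 at an unadjusted p under 0.05, against 3407 of all 18194 genes. All genes passed at 17.2% in the triple K5Cre arrays, 7.12% in the triple Bcat arrays, 7.28% in the masses and 4.03% in the ventral tumours. On animal means Csnk1a1 did not pass in the triple K5Cre (0.33, adjusted p = 0.0784) and triple Bcat arrays (0.55, adjusted p = 0.0571), nor Pkp2 in the triple K5Cre arrays (-1.85, adjusted p = 0.0501). Without the animal block Jup (1.12, adjusted p = 0.0504) and Csnk1a1 (0.33, adjusted p = 0.0633) did not pass in the triple K5Cre arrays. Sfn and Pkp1 lost theirs in the quadruple arrays without gland 2 (2.10 and 1.61), gland 3 (2.58 and 1.94) or gland 4 (2.00 and 1.65), and Pkp2 without gland 4 (-1.80). In the triple K5Cre arrays Csnk1a1 lost its call without any 1 gland (0.31 to 0.35), Jup without gland 2 (1.15), 3 (1.22) or 4 (1.00), and Pkp2 without gland 1 (-1.76), 2 (-1.78) or 4 (-1.69). Csnk1a1 lost it in the triple Bcat arrays without gland 2 (0.51), 3 (0.55) or 4 (0.51), or triple Bcat array 1 (0.49) or 2 (0.52). In the masses Jup lost it without any 1 gland (1.68 to 1.95) or either mass (1.95 and 1.71), and Pkp1 without gland 2 (2.78), 3 (3.12) or 4 (2.82) or either mass (3.06 and 3.02). In the replicate block of T627 and T635, where 0 of all genes passed, Jup stood at 1.40 in the triple K5Cre arrays (limma, adjusted p = 0.326). Csnk1a1 stood at 0.31 (adjusted p = 0.510) and Pkp2 at -1.65 (adjusted p = 0.448) there.

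The 7 basal and wound keratins were described in the same way. In each of the 5 groups all 7 had a positive difference from gland, and 0 passed in limma's test. The medians were 2.45 in the quadruple arrays, 1.44 in the triple K5Cre arrays, 3.65 in the triple Bcat arrays, 4.04 in the masses and 3.92 in the ventral tumours. Over all genes the medians lay between -0.01 and 0.02. At an unadjusted p under 0.05 there were 6, 1, 5, 6 and 5 of the 7 in the same order. Over all 18194 genes these counts were 5062, 5368, 4021, 3851 and 3407. Of all genes 15.4%, 17.2%, 7.12%, 7.28% and 4.03% passed in that order. Krt16, an injury-induced keratin gene, stood at 4.63 (SE 1.68, adjusted p = 0.0576) and Krt6a at 3.57 (SE 1.31, adjusted p = 0.0589) in the quadruple arrays. In the ventral tumours they stood at 8.08 (SE 2.74, adjusted p = 0.0877) and 6.15 (SE 2.13, adjusted p = 0.0932). The 8 myoepithelial markers went the other way, with medians of -1.32, -1.53, -1.8, -1.71 and -1.64 in the order of groups above. In each group 1 of these 8 had a positive difference. In limma's test 2, 3, 1, 0 and 1 of them were called lower and 0 higher.

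Of 12 luminal regulators, 1 passed in the quadruple and 1 in the triple K5Cre arrays, where 15.4% and 17.2% of all genes did. Esr1, the estrogen receptor gene, fell in the quadruple arrays (7.49 against 10.47 in gland, difference -3.0, SE 0.81, adjusted p = 0.00847) and in the triple K5Cre arrays (7.50 against 10.47, difference -3.01, SE 0.84, adjusted p = 0.0102). The call was lost without gland 3, which came from T627, at -2.76 (adjusted p = 0.0522) and -2.75 (adjusted p = 0.0619). In the replicate block of T627 and T635, where 0 of all genes passed, the difference of Esr1 was -3.29 (limma, adjusted p = 0.137). In limma's test 0 of 12 passed in the triple Bcat arrays, the masses and the ventral tumours, where 7.12%, 7.28% and 4.03% of all genes did. At an unadjusted p under 0.05 were 2, 2 and 5 of the 12, against 4021, 3851 and 3407 of all 18194 genes. Of 15 mucins and mucin glycosylation genes, only Galnt6, which starts O-linked chains of the kind that Muc1 carries, passed, in the quadruple arrays (1.99, SE 0.69, adjusted p = 0.0442) and the masses (3.78, SE 1.08, adjusted p = 0.0272), where 15.4% and 7.28% of all genes passed. Galnt6 lost its call in the quadruple arrays on animal means (1.91, adjusted p = 0.0651) and without any 1 gland (1.80 to 2.20), and in the masses without gland 3 (3.59) or either mass (3.48 and 4.07). In limma's test 0 of 15 passed in the triple K5Cre arrays, the triple Bcat arrays and the ventral tumours. Of all genes 17.2%, 7.12% and 4.03% passed there. At an unadjusted p under 0.05 were 3, 2 and 1 of the 15, against 5368, 4021 and 3407 of all 18194 genes. The adipocyte covariate was examined only for the 2 largest rises and falls called in each list against gland, and none of those passed with it. Adam17 in the triple K5Cre arrays and Jup and Csnk1a1 in the quadruple arrays were not among them.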

How the data were processed

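RNA from 39 mouse tissue samples was hybridised to Affymetrix arrays after Qiagen RNeasy extraction and 3' IVT Express labelling, per the labels' protocols. The deposited values are log2 values made by the authors with RMA, per the submitters' processing notes, which name no version. Of 45101 probe sets, 34958 had 1 gene symbol in the platform annotation, 932 several and 9211 none. The probe set with the highest mean stood for each of 18194 genes, leaving out x_at sets where another existed.

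Groups came from the genotype and tissue labels. One limma fit of all 39 arrays (limma 3.58.1, R 4.3.3) gave each group a mean, with the animal as a random block (30 animals, consensus correlation 0.329), eBayes with trend, and Benjamini-Hochberg adjusted p under 0.05 over all genes in 10 comparisons. P-values measure the spread between these arrays and animals, whose number limits the precision. The scripts were tested on simulated data. Correlations used the mean of each quadruple animal, 100000 permutations, two-sided (Python 3.11.15, scipy 1.17.1). The labels name no batch.

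The text names the members, Cdh1, Krt5 and Krt14, the 2 largest rises and falls called in each list (the 2 smallest p where none was called) and the 5 genes most like each member. Members and lists were chosen with earlier results of these data known. Animals T627 and T635 gave both a breast and a gland array, so the pairing comes from the labels. Alternatives changed the animal block, the arrays fitted, the filter, trend, array weights, normalization, probe set choice and covariates, and left out single arrays. The list of suprabasal keratins is not described.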

Additional observations from a re-analysis of the deposited data

Results flagged for a closer look

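In the triple K5Cre group Muc1 was 10.80 in array 1, which lay far from the other 7 arrays: its gap to the nearest of them was 0.571 of the group's whole range. This was the only such array among 12 sets of values examined, the 6 genes in each of the 2 groups of 4 to 10 arrays, and chance alone sets apart about 1 in 20 such sets.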

How the results depend on the processing

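The 6 genes gave 590 alternative values over 35 results: 549 kept direction and side of the threshold, 14 passed newly and 27 turned direction, and in none of these did a passing value stop passing, since none had passed. Of 160 alternative counts, 5 moved. Array weights called 4 of the 6 in the quadruple arrays, 3 in the triple K5Cre arrays and 3 in the ventral tumours against gland, and 1 in the quadruple arrays against the ventral tumours. The fit of the compared groups alone called 3 in the ventral tumours. The cause was not tested. Leaving out 1 array gave counts from 0 to 0 in each comparison with a group of 2 to 5 arrays.

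Krt7 in the triple Bcat arrays turned to 0.24 without the animal block, 0.12 on animal means, 0.19 in the compared groups alone, 0.19 with array weights, 0.004 with cyclic loess, 0.17 with the adipocyte covariate and 0.21 without the 3 arrays low in Xist. It ran from -0.47 to 0.27 with 1 array left out. In the triple K5Cre arrays Krt7 turned to -0.24 with array weights and -0.58 with the Cdh1 covariate, and ran from -0.021 to 0.72 with 1 array left out. With a replicate block of animals T627 and T635 it was -1.59 (limma, adjusted p = 0.315). That block, of 4 arrays, called 0 of the 6 genes and 0 of all genes, against 3134, and ended the triple K5Cre calls of all 9 list genes fitted in it that had passed. In the ventral tumours Krt7 was -0.16 with array weights and ran from -0.034 to 1.52 with 1 array left out. Epcam in the triple K5Cre arrays was -0.40 with the Cdh1 covariate. With the adipocyte covariate Epcam was 0.59 in the quadruple arrays and 0.67 in the masses, Krt19 0.63 in the triple K5Cre arrays and 0.67 in the masses, and Muc1 1.60, 0.98, 0.51, 1.85 and 0.35 in the quadruple, triple K5Cre, triple Bcat, mass and ventral tumour arrays.

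Over the 19 quadruple arrays singly, r with Epcam was 0.59 for Krt7, 0.15 for Krt8 and 0.25 for Krt18. With Muc1 it was 0.61 for Krt8 and 0.58 for Krt18. Over animal means, r of Krt7 with Epcam was -0.05 without animal Q648, against 0.23 over all 15 quadruple animals. Leaving out all 3 arrays of Q648, chosen after seeing the data, gave Krt19 in the quadruple arrays -2.02 (limma, adjusted p = 0.0906). Over all genes the quadruple arrays had 2794 calls against gland, 6749 under array weights, 1741 once the 3 low-Xist arrays were left out, 1671 without gland 3 and 80 given the adipocyte covariate. That covariate largely runs with gland against the other groups, and the reason for the fall to 80 was not tested. The 59 list results had 1011 alternative values, of which 175 stopped passing, 95 passed newly and 0 turned. No detection calls were used, so low Muc1 values have no stated signal over background.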
